A study of Mus musculus with 24 samples.

Results

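Enteroendocrine cells of the mouse colon were followed through 10 genes, matched by symbol among the 23329 gene symbols of the deposited files. They are the peptide hormone genes Gcg, Pyy, Insl5, Cck, Sst and Sct, the granule protein genes Chga and Chgb, the serotonin synthesis gene Tph1 and the transcription factor gene Neurod1. Estimated read counts were summed over the RefSeq transcripts of each symbol, and the 10 genes were measured in 24 libraries, 4 in each of 6 groups. All mice were of the C57Bl/6 strain and carried VilCre, a Cre recombinase driven by the villin promoter, which is active in gut epithelium. Control mice were VilCre, and transgenic mice were VilCre-CMVcaNrf2, which adds a constitutively active form of the transcription factor NRF2. Whole colon wall came from control and transgenic mice that had been left untreated or had received Dextran Sulfate Sodium (DSS), a polymer that injures the colon lining. Each wall piece was 10 mm long and was taken 10 to 20 mm from the rectum. Epithelial cells came from untreated mice of both genotypes. No source used here gives the age of the mice, the dose and duration of DSS, or how and from which stretch of colon the epithelial cells were taken. The series text speaks of triplicates, while 4 libraries per group are labelled. Nothing in the labels says that replicates were separate animals, so p-values reflect the spread between these samples alone, which may be technical.

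Enteroendocrine cells are scattered hormone-secreting cells of the gut epithelium. In the distal colon, L cells make glucagon-like peptide 1 from the Gcg transcript together with peptide YY and insulin-like peptide 5, D cells make somatostatin, and enterochromaffin cells make serotonin through tryptophan hydroxylase 1. Their hormones are stored with chromogranins in dense-core granules and released in response to nutrients, bacterial products and injury. Somatostatin, cholecystokinin and the chromogranins are also made by neurons, which whole colon wall contains and a pure epithelial preparation does not.

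Total counts ran from 20232309 to 154336039 in wall libraries and from 6683803 to 15399862 in epithelial libraries, and levels are given as CPM, counts scaled to the library size on a TMM scale common to all libraries. Nfe2l2, which encodes NRF2, was at 105.1 to 164.9 CPM in the 8 control wall libraries and at 157 to 297.8 CPM in the 8 transgenic ones. In epithelial cells it was at 135.8 to 181 CPM in controls and at 222.4 to 338.7 CPM in transgenic mice. The file names of wall replicate 4 of each group carry another leading number than those of replicates 1 to 3, and what that number stands for is not given. Among the epithelial libraries, control replicate 3 and transgenic replicate 1 stood apart. Their summed level of 8 colonocyte marker genes was 19660 and 22010 CPM, against 1282 to 4689 CPM in the other 6, and their summed level of 6 endothelial marker genes was 11.5 and 10.2 CPM, against 44.0 to 91.3 CPM. Results that rest on these libraries are given with and without them.

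Upstream sequences of 5 hormone genes are shown. Gcg, Pyy and Cck were chosen because they passed the DSS test in both genotypes. Insl5 was chosen for its level, next to that of Pyy, and Sst because it carried a cAMP response element match. Insl5 and Sst passed the DSS test in neither genotype. All 10 genes were found in the RefSeq promoter table, and each run below is the 250 bases before the annotated start, 5′ to 3′ on the gene's strand, on GRCm38.p6. Capitals mark matches to the E-box CANNTG, the recognition element of basic helix-loop-helix factors such as Neurod1, or to the cAMP response element TGACGTCA, both searched on both strands. The E-box letters occurred in 66.2% of 32851 promoters of the same length and the cAMP response element in 1.55%.
Gcg, chr2:62483654-62483903, minus strand: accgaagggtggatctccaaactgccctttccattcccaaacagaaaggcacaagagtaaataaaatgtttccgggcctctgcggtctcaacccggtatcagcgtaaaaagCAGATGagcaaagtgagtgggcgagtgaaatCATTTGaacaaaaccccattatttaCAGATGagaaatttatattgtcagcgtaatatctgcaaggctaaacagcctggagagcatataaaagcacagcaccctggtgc
Pyy, chr11:102107777-102108026, minus strand: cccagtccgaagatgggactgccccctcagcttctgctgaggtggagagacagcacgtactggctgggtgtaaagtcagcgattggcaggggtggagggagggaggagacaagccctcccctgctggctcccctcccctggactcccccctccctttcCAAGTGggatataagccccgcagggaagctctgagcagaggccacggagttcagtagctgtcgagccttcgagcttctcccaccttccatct
Insl5, chr4:103026729-103026978, minus strand: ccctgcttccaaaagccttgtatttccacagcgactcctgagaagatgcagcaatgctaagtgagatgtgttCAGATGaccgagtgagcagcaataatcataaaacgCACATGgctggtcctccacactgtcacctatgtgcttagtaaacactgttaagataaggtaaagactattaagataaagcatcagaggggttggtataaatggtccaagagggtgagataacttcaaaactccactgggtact
Cck, chr9:121495695-121495944, minus strand: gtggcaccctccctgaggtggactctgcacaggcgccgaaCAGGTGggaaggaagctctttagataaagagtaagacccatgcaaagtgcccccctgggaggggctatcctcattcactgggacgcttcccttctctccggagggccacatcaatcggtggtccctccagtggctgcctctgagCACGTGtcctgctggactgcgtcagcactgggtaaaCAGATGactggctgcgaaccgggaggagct
Sst, chr16:23890845-23891094, minus strand: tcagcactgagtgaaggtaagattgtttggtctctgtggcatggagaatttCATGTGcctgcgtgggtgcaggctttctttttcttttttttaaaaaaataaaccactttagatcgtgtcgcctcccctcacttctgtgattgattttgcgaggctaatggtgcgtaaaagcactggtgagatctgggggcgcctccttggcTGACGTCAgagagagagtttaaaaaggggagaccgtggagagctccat
Gcg and Cck held 3 E-box matches each, Insl5 held 2, and Pyy and Sst held 1 each. Among the members not printed, Chga and Sct held 3, Chgb and Neurod1 held 1 and Tph1 held none. The cAMP response element was found in Sst, with its first base 48 bases before the start, in Chgb, 72 bases before the start in the RefSeq table, and in no other member's window. For Chgb that start lies 364 bases inside the gene as the deposited files place it, so its match lies within the deposited gene, and for Cck the starts differ by 5 bases. The core letters TGANNNNGC of the antioxidant response element, which NRF2 binds, occurred in the windows of Gcg, Pyy, Cck, Tph1 and Sst on either strand, and in 35.2% of all promoters. A match describes these letters only and is not a measured binding site.

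Pyy and Insl5 dominated the enteroendocrine transcripts of the colon wall. On the TPM scale, which divides by transcript length as well as by library size, Pyy stood at 466 ± 121 TPM (SD, n = 4) in untreated control wall and Insl5 at 258 ± 123 TPM. Below them came Chgb at 91.1 ± 18.3, Chga at 70.9 ± 11.5, Gcg at 53.6 ± 29.5 and Sst at 33.6 ± 22.4 TPM, whose neighbours in this order overlapped between libraries. Tph1 followed at 12.4 ± 1.01 TPM, below every Sst library, and Sct at 6.74 ± 1.55 TPM, below every Tph1 library. Cck at 1.25 ± 0.84 and Neurod1 at 1.04 ± 0.50 TPM were lowest and overlapped each other. Of the TPM summed over the 10 genes, Pyy made up 47.5% ± 2.83 (SD, n = 4) in untreated control wall, 49.4% ± 2.64 in untreated transgenic wall, 49.6% ± 3.24 in DSS-treated control wall and 50.1% ± 7.54 in DSS-treated transgenic wall. Its mean share thus ran from 47.5% to 50.1% over the wall groups. Insl5 held 25.02% ± 3.96 in untreated control wall and 22.3% ± 0.99 with DSS. The share of Gcg was 5.17% ± 1.08 in untreated and 7.42% ± 2.13 in DSS-treated control wall, and these ranges overlapped.

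**Figure D1:**
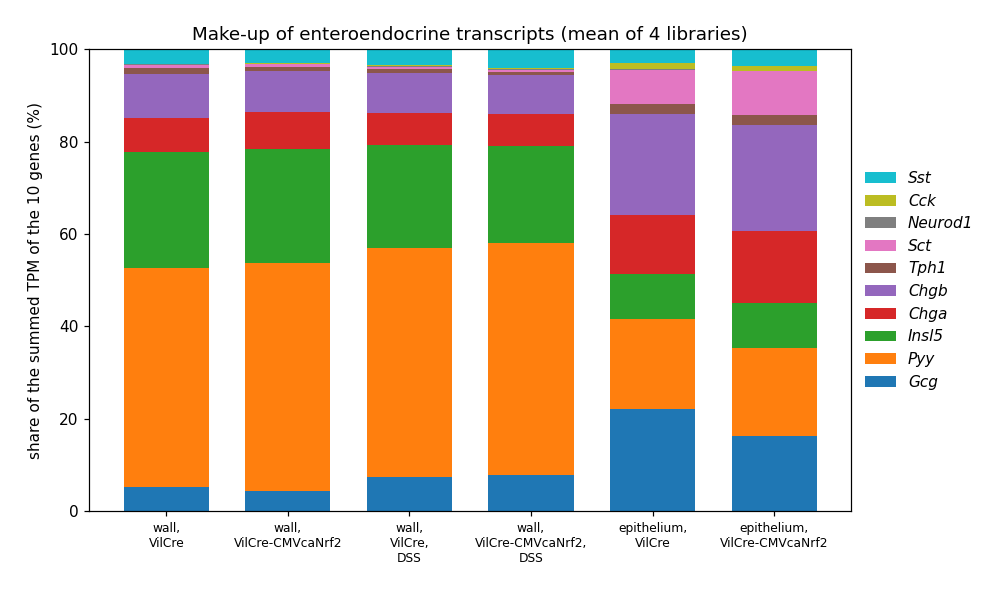
Stacked bars give the mean share (%) of each gene in the TPM summed over the 10 enteroendocrine genes, for 4 libraries in each of 6 groups. Pyy holds 47.5% to 50.1% in the 4 wall groups and 19.4% and 19.02% in the epithelial groups, where Gcg holds 22.2% and 16.3%.

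The hormone transcripts Gcg, Pyy and Cck of the colon wall were higher after DSS in both genotypes. Gcg rose 2.46-fold in control and 2.77-fold in transgenic wall, Pyy rose 1.77-fold and 1.62-fold, and Cck rose 3.17-fold and 3.79-fold. Chga and Chgb rose 1.62-fold and 1.54-fold in control wall. No member fell in either genotype. In control wall 5 of 10 members rose at an adjusted p below 0.05 in edgeR's quasi-likelihood test, where 23.1% of all 16074 genes tested rose and 39.2% changed in either direction. In transgenic wall 3 of 10 rose, where 23.1% of all genes rose and 41.2% changed. All 10 members passed the filter on low counts. The fitted change lay above 0 for all 10 in each genotype, with a median log2 fold change of 0.66 in control and 0.61 in transgenic wall, beside 0.06 and 0.01 over all genes. Both comparisons come from bulk tissue, in which more cells of a type and more RNA per cell cannot be told apart.

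Gcg encodes proglucagon, the precursor of glucagon-like peptides 1 and 2, and is annotated as NM_008100 at chr2:62474530-62483653 on the minus strand of mm10. In untreated control wall the 4 libraries had 29.9, 60.1, 27.5 and 17.4 CPM, and in DSS-treated control wall 58.7, 145, 39.9 and 67.1 CPM. Untreated transgenic wall had 38.4, 29.6, 23.3 and 20.9 CPM and DSS-treated transgenic wall 111, 98.5, 50.3 and 42.5 CPM. All 4 treated transgenic libraries lay above all 4 untreated ones, as 18.2% of all genes did, while in controls the highest untreated library, replicate 2, lay above 2 of the treated ones. The log2 fold change was 1.30 ± 0.42 (SE, adjusted p = 0.0219) in control and 1.47 ± 0.42 (adjusted p = 0.0113) in transgenic wall. In transgenic wall this call held under all 16 alternative settings tried, with log2 fold changes from 1.17 to 1.88. In control wall it was lost without untreated replicate 1 (1.25, adjusted p = 0.0572), 3 (1.12, 0.0804) or 4 (1.04, 0.0646), and without DSS-treated replicate 2 (log2 fold change 0.82, adjusted p = 0.119), which had the highest Gcg of all.

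Pyy encodes peptide YY, which slows gut transit and reduces appetite, and lies at chr11:102106676-102107776 on the minus strand (NM_145435). Untreated control wall had 127, 157, 128 and 68.3 CPM and treated control wall 154, 289, 164 and 189 CPM, with replicate 4 lowest in the first group and replicate 2 highest in the second. Untreated transgenic wall had 157, 132, 114 and 99.3 CPM and treated transgenic wall 173, 189, 147 and 289 CPM. In both genotypes only the highest untreated and the lowest treated library crossed. DSS changed Pyy by a log2 fold change of 0.82 ± 0.26 (SE, adjusted p = 0.0188) in control and 0.70 ± 0.26 (adjusted p = 0.038) in transgenic wall. The control call was lost without untreated replicate 3 (0.76, adjusted p = 0.0629) or 4 (0.58, 0.0609), or without DSS-treated replicate 2 (0.60, 0.0829). The transgenic call was lost without any one of 6 of the 8 libraries, with adjusted p from 0.0539 to 0.178, the highest without DSS-treated replicate 4.

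Insl5, the gene of insulin-like peptide 5, a relaxin family hormone of colonic L cells, lies at chr4:103017873-103026728 on the minus strand (NM_011831). Its untreated control libraries had 91.2, 158, 100 and 41.2 CPM and its treated ones 109, 191, 98.7 and 125 CPM. In transgenic wall the values were 128, 106, 71.5 and 67.5 CPM untreated and 119, 134, 98.2 and 129 CPM with DSS. Treated and untreated libraries were interleaved in both genotypes. The log2 fold change was 0.52 ± 0.30 (SE, adjusted p = 0.187) in control and 0.40 ± 0.30 (adjusted p = 0.304) in transgenic wall, neither past the threshold. Without untreated control replicate 2, the highest of its group, the control value was 0.85 (adjusted p = 0.0352).

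Cck, the cholecystokinin gene (NM_031161, chr9:121489824-121495689, minus strand), was scarce, with 10 to 97 counts in any wall library. It stood at 0.20, 0.86, 0.31 and 0.43 CPM in untreated and 0.44, 2.02, 1.07 and 1.45 CPM in treated control wall. In transgenic wall it stood at 0.62, 0.28, 0.33 and 0.29 CPM untreated and 2.23, 1.24, 0.43 and 1.34 CPM treated. All but 1 treated library of each genotype lay above all untreated libraries of that genotype. On the log2 scale Cck changed by 1.67 ± 0.54 (SE, adjusted p = 0.0224) in control and 1.92 ± 0.55 (adjusted p = 0.0118) in transgenic wall. The control call was lost without untreated replicate 1 (1.42, adjusted p = 0.0731) or 3 (1.43, 0.0792) and without DSS-treated replicate 2 (1.34, 0.0862), and the transgenic call without DSS-treated replicate 1 (1.46, 0.0532). Without the wall libraries of the other file name number Cck was at 1.58 (adjusted p = 0.0913) and 1.80 (0.0575).

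Sst and Sct, the somatostatin and secretin genes, did not pass the threshold. Sst (NM_009215, chr16:23889581-23890844, minus strand) inhibits the release of other gut hormones. It had 8.49, 20.7, 10.0 and 3.98 CPM in untreated and 12.4, 17.1, 12.9 and 25.7 CPM in treated control wall, and 19.7, 8.56, 7.36 and 5.30 and 25.6, 21.4, 10.9 and 23.4 CPM in untreated and treated transgenic wall. In both genotypes 1 high untreated library, control replicate 2 and transgenic replicate 1, lay among the treated ones. The log2 fold change of Sst was 0.77 ± 0.45 (SE, adjusted p = 0.186) in control and 1.04 ± 0.45 (adjusted p = 0.076) in transgenic wall, and without those libraries it was 1.29 (adjusted p = 0.0343) and 1.55 (adjusted p = 0.0154). Leaving out transgenic DSS-treated replicate 3 also took it past the threshold, at 1.26 (adjusted p = 0.0422). Sct (NM_011328, chr7:141278338-141279131, minus strand), whose hormone drives bicarbonate secretion, lay between 1.09 and 2.27 CPM in untreated and between 1.12 and 3.93 CPM in treated control wall, with a log2 fold change of 0.52 ± 0.32 (SE, adjusted p = 0.203). In transgenic wall it was 0.17 ± 0.32 (adjusted p = 0.694).

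The granule protein genes Chga and Chgb passed in control wall and missed the threshold in transgenic wall. Chga, which encodes chromogranin A (NM_007693, chr12:102554969-102565027, plus strand), had 87.2, 95.8, 83.6 and 54.6 CPM in untreated and 102, 141, 102 and 143 CPM in treated control wall. Every treated control library lay above every untreated one, as 16.4% of all genes did, and the log2 fold change was 0.69 ± 0.20 (SE, adjusted p = 0.0112). Transgenic wall had 117, 99.9, 77.2 and 63.3 CPM untreated and 112, 140.2, 103 and 122 CPM treated, with overlapping groups and a log2 fold change of 0.45 ± 0.20 (SE, adjusted p = 0.075). Chgb, which encodes chromogranin B (NM_007694, chr2:132781278-132795072, plus strand), had 161, 191, 144 and 109 CPM in untreated and 196, 244, 139 and 297 CPM in treated control wall. In transgenic wall the values were 198, 158, 119.8 and 126 and 219, 271, 175 and 182 CPM, and the groups overlapped in both genotypes. The log2 fold change of Chgb was 0.62 ± 0.23 (SE, adjusted p = 0.042) in control and 0.53 ± 0.23 (adjusted p = 0.0775) in transgenic wall. The Chga call was lost without untreated control replicate 3 (0.62, adjusted p = 0.051) and without the libraries of the other file name number (0.42, 0.0795). The Chgb call in control wall held under 5 of 16 alternatives, with adjusted p up to 0.374. Without untreated transgenic replicate 1, the highest of its group in both genes, Chga (0.60, adjusted p = 0.0325) and Chgb (0.68, 0.0418) passed in transgenic wall.

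Tph1 and Neurod1, which stand for the serotonin branch and for differentiation, did not pass. Tph1 encodes the rate-limiting enzyme of serotonin synthesis in enterochromaffin cells and is listed with 2 transcripts at chr7:46647131-46672537 on the minus strand, of which NM_001136084 took 99.96% of the counts. It had 12.1, 13.4, 15.4 and 10.4 CPM in untreated and 19.6, 12.4, 5.81 and 17.5 CPM in treated control wall, with a log2 fold change of 0.20 ± 0.32 (SE, adjusted p = 0.653). In transgenic wall it had 7.43, 9.14, 4.17 and 9.63 CPM untreated and 14.1, 11.8, 16.4 and 7.48 CPM treated, with a log2 fold change of 0.73 ± 0.33 (SE, adjusted p = 0.0811). The treated groups of both genotypes spread wider than the untreated ones. Without DSS-treated transgenic replicate 4 the transgenic value was 0.88 (adjusted p = 0.0427). Neurod1, a factor needed for endocrine differentiation (NM_010894, chr2:79452641-79456636, minus strand), lay between 0.86 and 1.95 CPM in untreated and 0.83 and 2.87 CPM in treated control wall, at 16 to 220 counts in any wall library. Its log2 fold change was 0.53 ± 0.39 (SE, adjusted p = 0.29) in control and 0.29 ± 0.39 (adjusted p = 0.567) in transgenic wall.

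**Figure D2:**
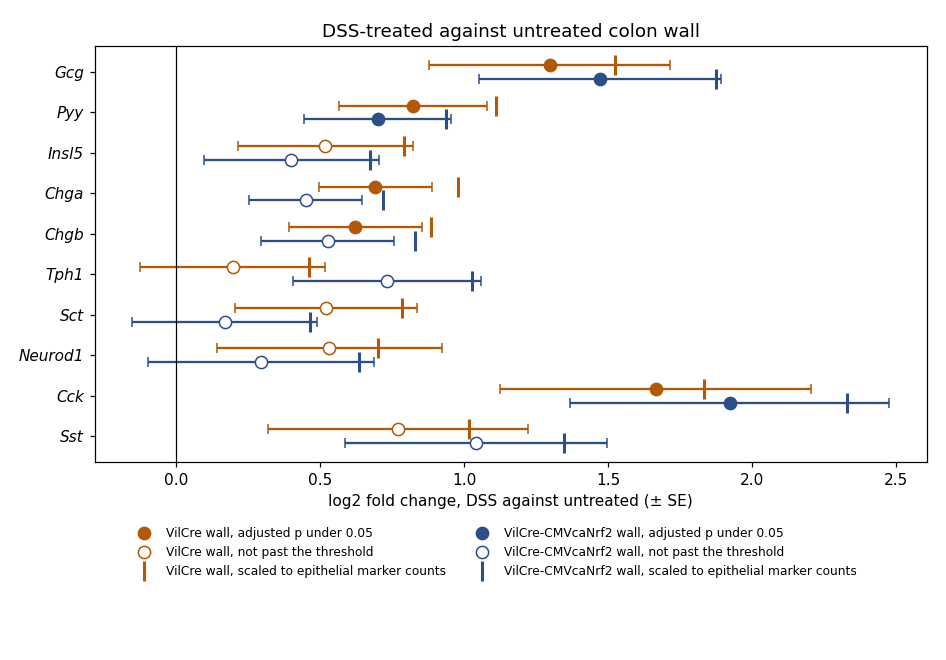
Circles give the log2 fold change of DSS-treated against untreated wall with its SE, for each of 10 genes and both genotypes, filled where the adjusted p was below 0.05, and ticks give the same value after scaling to epithelial marker counts. All 20 circles lie above 0, and Gcg, Pyy and Cck are filled in both genotypes.

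The count in control wall depended on single libraries. It was 2 without untreated replicate 1, 7 without untreated replicate 2, 0 without untreated replicate 3, 2 without untreated replicate 4 and 1 without DSS-treated replicate 2. In transgenic wall it was 6 without untreated replicate 1 and 1 without DSS-treated replicate 1, and 2 without any one of untreated replicates 2, 3 and 4 or DSS-treated replicate 2. Without the 4 wall libraries of the other file name number, 1 member passed in control wall, Pyy at 0.61 (adjusted p = 0.0451), where 21.3% of all genes rose, and Gcg was at 1.10 (adjusted p = 0.0682). In transgenic wall 2 passed, Gcg and Tph1 at 1.03 (adjusted p = 0.0363), where 22.2% of all genes rose, and Pyy was at 0.35 (adjusted p = 0.215). Under all alternatives tried, the fitted DSS changes of the members stayed above 0, except that without the libraries of the other file name number Tph1 in control wall was at -0.06 and Sct in transgenic wall at -0.01, and without DSS-treated control replicate 1 Tph1 was at -0.001.

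The tissue around the epithelium changed alongside. The counts below stand beside 23.1% of all genes that rose in each genotype. Of all genes, 16.1% fell in control and 18.1% in transgenic wall. Of 12 enteric neuron markers, 11 rose in control and 12 in transgenic wall, and their summed level was 133.9 to 290.2 CPM in untreated and 269.9 to 506.8 CPM in treated control wall, and 119.4 to 257.6 and 250.2 to 525.2 CPM in transgenic wall. None of the 12 was at 0 in any wall group. Vip, one of the most abundant of them, averaged 56.6 CPM in untreated and 96.4 CPM in treated control wall. Of 10 pan-epithelial markers, 1 rose and 2 fell in control wall and none passed in transgenic wall, with summed levels of 12320 to 20920 CPM in untreated and 11060 to 13160 CPM in treated control wall, and 13600 to 16430 and 8218 to 19580 CPM in transgenic wall. All 6 endothelial markers rose in each genotype, 4 of 6 crypt stem cell markers fell, and 7 of 8 tested mast cell markers rose in control and 6 in transgenic wall. Of 7 goblet cell markers 2 rose in control and 1 in transgenic wall, near or below the share of all genes. Muc2, the other listed goblet gene, had no match by symbol. The median log2 fold changes of the 7 were 0.62 and 0.44, beside 0.06 and 0.01 over all genes. Their summed level was 7256 to 12090 CPM in untreated and 9775 to 20440 CPM in treated control wall. In transgenic wall it was 7583 to 11320 CPM untreated and 12120 to 16870 CPM treated. Of 6 glial markers 4 and 5 rose, and of 6 immune cell markers 4 and 3 rose, in control and transgenic wall. The summed mast cell markers were at 7.19 to 12.0 CPM in untreated and 11.3 to 22.6 CPM in treated control wall, with Ms4a2 at 0 in both untreated groups. The part of these other cells in the rise of Cck, Chga, Chgb, Gcg and Pyy was not tested.

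Scaling each library to its summed pan-epithelial marker counts gave the level of each gene relative to these markers. Within that sum, Krt8 and Krt19 averaged 6304 and 3389 CPM in untreated control wall. Whether the sum follows epithelial content was not tested. On this scale Gcg rose by a log2 fold change of 1.52 (adjusted p = 0.0345), Pyy by 1.11 (0.015) and Chga by 0.98 (0.0212) in control wall, where 18.3% of all genes rose. In transgenic wall Gcg rose by 1.88 (adjusted p = 0.0108), Pyy by 0.94 (0.0271) and Cck by 2.33 (0.0175), where 20.9% of all genes rose. Cck and Chgb in control wall missed the threshold, at 1.83 (adjusted p = 0.0532) and 0.88 (0.0531). This scaling moved the median of all genes to 0.33 in control and 0.28 in transgenic wall and the share of rises among all calls from 58.9% to 84.05% and from 56.0% to 84.2%. Relative to that median, Gcg and Pyy still lay higher in both genotypes.

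Other genes of the enteroendocrine programme were taken from lists chosen for function, with earlier results of these data known. Their counts stand beside 23.1% of all genes that rose in each genotype, and 16.1% that fell in control and 18.1% in transgenic wall. Of 25 genes for granules and peptide processing, 14 rose and 1 fell in control wall and 15 rose and 1 fell in transgenic wall, with median log2 fold changes of 0.66 and 0.82. Many of these genes also work in neurons. Syt13, a synaptotagmin, rose 2.48-fold in control and 2.58-fold in transgenic wall, Rab3c, a vesicle GTPase, rose 2.33-fold and 2.71-fold, and Snap25, a release protein that is also one of the neuron markers above, rose 2.02-fold and 2.11-fold. Pam, the enzyme that amidates peptide YY and cholecystokinin, rose 1.58-fold and 1.62-fold, from 238.8 to 355.1 mean CPM in control wall. Ddc, which makes serotonin from its precursor, was the gene that fell in control wall, and Cryba2 the one that fell in transgenic wall, both named after their values were seen. Of 6 other gut hormone genes tested among 10 listed, 3 rose and none fell in each genotype. Tac1, the gene of substance P, rose 4.05-fold and 4.99-fold, and Penk, that of the enkephalins, rose 2.55-fold and 3.16-fold, and both hormones are also made by enteric neurons. Ppy, the gene of pancreatic polypeptide, rose 2.12-fold in control wall and stood at 8.45 and 12.6 mean CPM in untreated and treated transgenic wall (adjusted p = 0.179). Ghrl, the ghrelin gene, averaged 0.51 CPM in untreated and 0.18 CPM in treated control wall and did not pass (adjusted p = 0.116).

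Few transcription factors of the lineage passed. Of 20 tested among 23 listed, 2 rose and 3 fell in control wall and 2 rose and 5 fell in transgenic wall, with medians of 0.12 and -0.30, shares near or below those of all genes except for the falls in transgenic wall. Atoh1, which commits progenitors to the secretory lineage, fell to 0.47 of its untreated level in control wall (adjusted p = 0.0269), from 44.7 to 20.1 mean CPM, and had a fold change of 0.56 in transgenic wall (adjusted p = 0.0732). Foxa2, a factor of gut endoderm used in L cells, fell to 0.52 and 0.36 of its untreated level. Mnx1, a homeobox factor, fell to 0.16 and 0.12. Etv1, an ETS factor, rose 2.26-fold and 2.65-fold, and Myt1, a zinc finger factor of endocrine cells, rose 1.55-fold in control wall and had a fold change of 1.11 in transgenic wall (adjusted p = 0.611). The difference of these factors between genotypes did not pass a test for any of the 20.

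Receptors and enzymes on the receiving side moved in both directions. Of 19 tested among 25 listed, 7 rose and 4 fell in control wall and 6 rose and 5 fell in transgenic wall. Npy1r, a receptor for the neuropeptide Y family to which peptide YY belongs, fell to 0.33 and 0.32 of its untreated level, and the pancreatic polypeptide receptor, listed under its older symbol Ppyr1, rose 2.82-fold and 2.18-fold. Dpp4, the protease that inactivates glucagon-like peptide 1 and trims peptide YY, fell to 0.44 and 0.48, from 56.0 to 23.0 mean CPM in control wall. Cckar, the cholecystokinin A receptor, rose 3.49-fold and 3.19-fold, and Htr4, a serotonin receptor, fell to 0.24 and 0.16. Among 21 sensors and channels tested of 23 listed, 11 rose in control and 7 in transgenic wall and none fell. The calcium-sensing receptor Casr rose 3.19-fold and 5.07-fold from 0.19 and 0.12 mean CPM, and the sodium channels Scn9a and Scn3a, also found in neurons, rose 2.85-fold and 2.24-fold in control wall. The short-chain fatty acid receptor Ffar3 and the adrenergic receptor Adra2a rose 2.32-fold and 2.31-fold in control wall. In transgenic wall these receptors had fold changes of 1.48 (adjusted p = 0.182) and 1.53 (adjusted p = 0.0772).

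**Figure D3:**
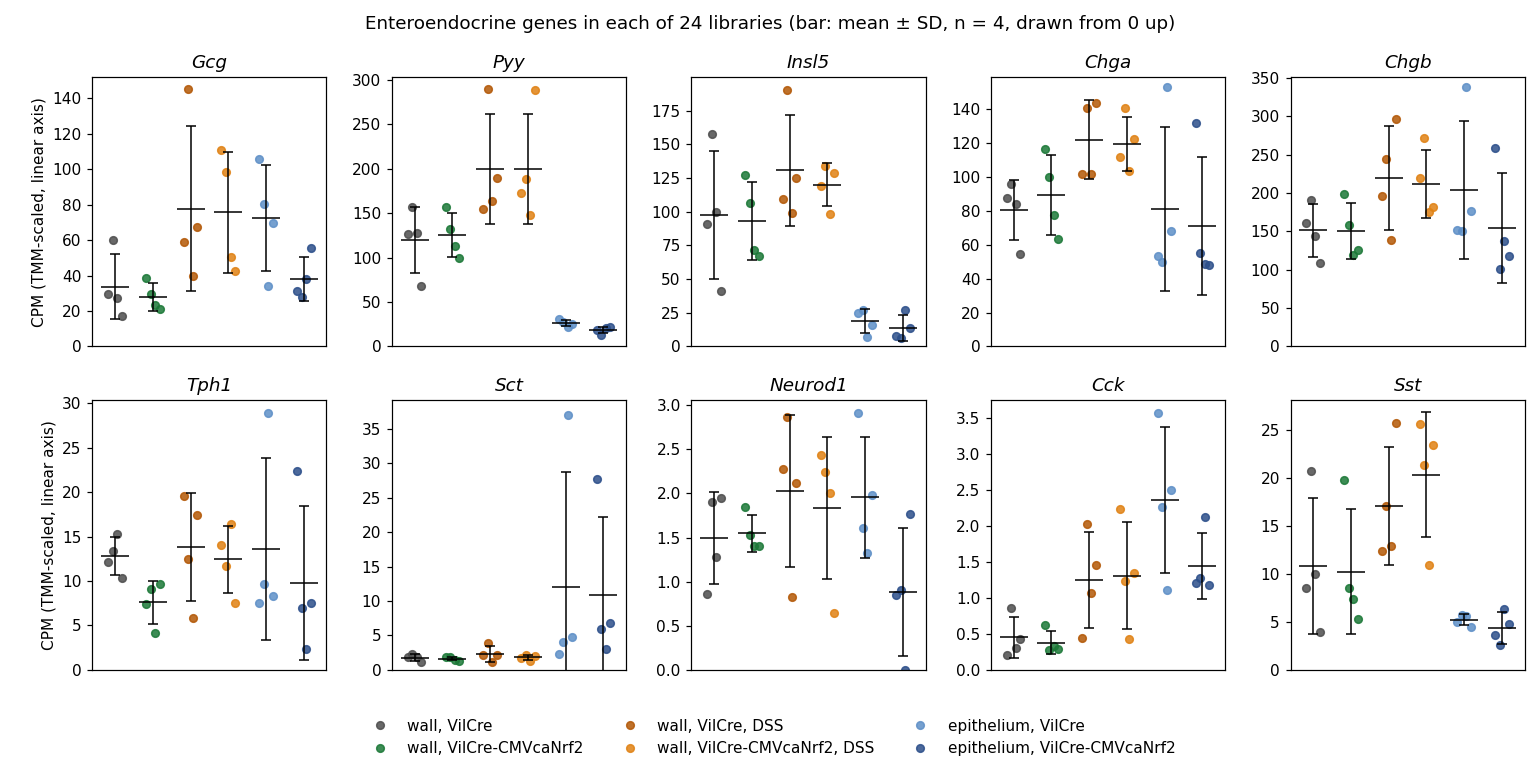
Each point is 1 library, as CPM on a linear axis from 0, for each of 10 genes in 6 groups of 4 libraries, with the mean and SD as a bar. Pyy and Insl5 are at most 31.0 CPM in all 8 epithelial libraries and at least 41.2 CPM in all 16 wall libraries, and Sct has its highest points in 2 epithelial libraries.

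The transgene moved no member past the threshold in any group, and no member passed the test for a DSS effect that differs between genotypes. In untreated wall edgeR called 36 of 16074 genes (0.224%) and none of the 10, with 1 member at an unadjusted p under 0.05. That member was Tph1, whose transgenic libraries all lay below the control libraries, as 3.84% of all genes did, at a mean of 7.59 against 12.8 CPM and a log2 fold change of -0.72 ± 0.32 (SE, adjusted p = 0.451). With DSS its means were 12.4 and 13.8 CPM and its log2 fold change -0.18 ± 0.32 (adjusted p = 0.9999). In treated wall 15 genes (0.0933%) were called by edgeR and none of the members, with no member at an unadjusted p under 0.05. Pyy had means of 199.4 CPM in transgenic and 199.3 CPM in control wall with DSS, and a log2 fold change of -0.03 ± 0.26. Gcg had -0.06 ± 0.41 and Insl5 -0.15 ± 0.30. DESeq2 called none of the 10 in either wall comparison.

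A difference in the DSS effect between control and transgenic wall was tested as an interaction. edgeR called 0 of 16074 genes (0.0%), with 1279 at an unadjusted p under 0.05 and none of them a member, and DESeq2 called 40 genes and no member. The largest difference among the members was that of Tph1, 0.54 ± 0.46 (SE, adjusted p = 0.894), toward a larger rise in transgenic wall. The SE of these differences ran from 0.28 for Chga to 0.76 for Cck on the log2 scale, which limits the differences that could be resolved. Of the genes around them, Sstr1, a somatostatin receptor, was the single gene of the hormone receptor list called for genotype in untreated wall, with mean levels of 36.3 CPM in transgenic and 14.6 CPM in control wall (log2 fold change 1.34, adjusted p = 0.00511), and it was chosen for naming after its value was seen.

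In epithelial cells no member passed the test for genotype, and all 10 fitted effects lay below 0. edgeR called 0 of 12941 genes (0.0%), with 1344 at an unadjusted p under 0.05. Gcg (unadjusted p = 0.0206) and Pyy (0.0277) were among these 1344. DESeq2 called 215 genes and none of the 9 members for which it gave an adjusted p. The median of the members was -0.44, beside 0.00 over all genes. Without the 2 libraries that stood apart the median was -0.51 and 9 of 10 lay below 0, with Sct at 0.54 (adjusted p = 0.541). Without control replicate 3 alone, Sct was at 1.65, Chga at 0.39, Tph1 at 0.29 and Chgb at 0.02, and the sign of these 4 was not stable. Gcg had 106, 80.2, 34.0 and 69.6 CPM in control and 31.5, 27.6, 37.8 and 55.6 CPM in transgenic epithelial cells, with a log2 fold change of -0.89 ± 0.32 (SE, adjusted p = 0.393). Control replicate 3 lay among the transgenic libraries and the other 3 controls above them. Pyy had 31.0, 27.2, 22.3 and 24.8 CPM in control and 18.7, 13.4, 20.3 and 21.6 CPM in transgenic cells, where no libraries overlapped, as 4.32% of all genes were lower in this way. Its log2 fold change was -0.48 ± 0.18 (SE, adjusted p = 0.414). Without the 2 libraries that stood apart, Gcg passed with -1.05 (adjusted p = 0.0365), where 3.49% of all genes were lower, and no other member passed. The difference of the genotype effect between epithelial cells and untreated wall was called by edgeR for 0 of 15073 genes (0.0%), with 1203 at an unadjusted p under 0.05 and no member among them. DESeq2 called 66 genes and no member. Pyy came nearest, at -0.61 ± 0.30 (SE, adjusted p = 0.649).

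Pyy and Insl5 were lower and Cck and Sct higher in epithelial cells than in untreated wall. Pyy was at 0.25 of its wall level in control epithelial cells and at 0.16 in transgenic ones, and Insl5 was at 0.22 and 0.17. Cck was 6.17-fold and 4.43-fold higher in epithelial cells, and Sct 7.95-fold and 7.39-fold higher. The size of the Sct folds rested on 1 library per genotype. Without control replicate 3 the log2 fold change of Sct in controls was 1.19 (adjusted p = 0.109). Without transgenic replicate 1 it was 1.78 in transgenic samples (adjusted p = 0.0547). With both left out, Sct passed in both genotypes, as given further below. Gcg was 2.45-fold higher in controls. In controls 3 members were higher and 2 lower at an adjusted p below 0.05, where 38.6% of 15073 genes differed, 18.9% higher and 19.7% lower. In transgenic samples 2 were higher and 2 lower, where 43.5% differed. The preparations differ in tissue content and in how they were made, and may differ in position along the colon, which is not given for epithelial cells. These cannot be told apart.

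The label of the epithelial preparation was checked against its markers. The 12 enteric neuron markers summed to 8.29 to 10.3 CPM in control and 7.996 to 13.1 CPM in transgenic epithelial cells. In untreated wall they summed to 119.4 to 290.2 CPM. Of 6 endothelial markers, 1 was lower than in wall in each genotype. They summed to 44.0 to 91.3 CPM in the 6 libraries other than those that stood apart, against 86.3 to 123.5 CPM in untreated wall. Of 6 glial markers, 4 were lower in each genotype and 1 was higher in controls. The glial median log2 fold changes were -3.54 and -2.98, with Sox10 at 0 counts in control and S100b at 0 in transgenic epithelial cells. The 6 glial markers still summed to 201.9 to 367.0 CPM, against 178.6 to 291.1 CPM in untreated wall, so this sum did not follow most of its genes. Of 5 immune markers tested, 3 were lower in controls and 2 in transgenic samples. Pan-epithelial markers summed to 18640 and 19670 CPM in the 2 epithelial libraries that stood apart and to 8881 to 11890 CPM in the other 6. In untreated wall they summed to 12320 to 20920 CPM, so those 6 lay below every untreated wall library. In epithelial cells 7 goblet cell markers summed to 23940 to 49240 CPM, against 7256 to 12090 CPM in untreated wall. The colonocyte markers went the other way: 5 of 8 in controls and 4 of 8 in transgenic samples were lower than in wall and 1 was higher in each, with median log2 fold changes of -2.16 and -2.11. They summed to 1282 to 4689 CPM in 6 of the 8 epithelial libraries, against 5210 to 11390 CPM in untreated wall, and their part in the lower Pyy and Insl5 was not tested. Crypt stem cell markers summed to 246.4 and 255.3 CPM in the 2 epithelial libraries that stood apart and to 601.1 to 743.4 CPM in the other 6. In untreated wall they summed to 275 to 464 CPM. Of 6 such markers, 4 were higher than in wall in each genotype. In preparations whose summed neuron markers were at most 13.1 CPM, Chgb was at 101.4 CPM or more and Chga at 48.1 CPM or more. Both genes overlapped their wall levels. Endothelial markers and some of the glial markers were present in these preparations, and the part of other cells in Chga and Chgb was not tested.

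Pyy had 31.0, 27.2, 22.3 and 24.8 CPM in the 4 control epithelial libraries and 127, 157, 128 and 68.3 CPM in untreated control wall, and the highest epithelial library lay below the lowest wall library, as 26.0% of all genes did. Against wall its log2 fold change was -2.0 ± 0.22 (SE, adjusted p = 4.09e-06) in controls and -2.60 ± 0.23 (adjusted p = 3.78e-07) in transgenic samples. Insl5 had 24.9, 27.3, 7.33 and 15.7 CPM in control and 8.07, 6.25, 27.2 and 13.6 CPM in transgenic epithelial cells. The control epithelial libraries all lay below every untreated control wall library, as for the same 26.0% of all genes. Its log2 fold change was -2.18 ± 0.48 (SE, adjusted p = 0.00192) and -2.59 ± 0.49 (adjusted p = 0.000528). These calls of Pyy and Insl5 held under all 16 alternatives in each genotype, epithelial scaling included.

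Gcg, made by the same L cells as Pyy and Insl5, did not follow them. It had a log2 fold change of 1.29 ± 0.36 (SE, adjusted p = 0.00997) in control epithelial cells and 0.60 ± 0.36 (adjusted p = 0.193) in transgenic ones, against the same walls. On the TPM scale the order in control epithelial cells was Chgb at 135 ± 44.4, Gcg at 133 ± 59.5, Pyy at 118 ± 23.4, Chga at 78.3 ± 37.6 and Insl5 at 58.4 ± 29.3 TPM (SD, n = 4), and each overlapped the next. Pyy made up 19.4% ± 4.58 of the TPM summed over the 10 genes there and Gcg 22.2% ± 10.1. Sst had 4.99, 5.73, 5.63 and 4.48 CPM in control and 3.68, 2.54, 6.35 and 4.83 CPM in transgenic epithelial cells, with log2 fold changes against wall of -0.85 ± 0.46 (SE, adjusted p = 0.159) and -1.06 ± 0.46 (adjusted p = 0.0745). It passed in both genotypes without the wall libraries of the other file name number, at -1.17 (adjusted p = 0.0397) and -1.32 (adjusted p = 0.021), where 18.7% and 21.9% of all genes were lower.

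Cck had 3.57, 2.26, 1.11 and 2.50 CPM in control and 1.2, 1.27, 2.12 and 1.18 CPM in transgenic epithelial cells, all above every untreated wall library of the same genotype, as 10.1% and 11.9% of all genes were. Its log2 fold change was 2.62 ± 0.51 (SE, adjusted p = 0.000711) and 2.15 ± 0.51 (adjusted p = 0.00311), and both held under all 16 alternatives, at 10 to 43 counts per epithelial library. Neurod1 had 2.91, 1.61, 1.33 and 1.98 CPM in control and 0.85, 0.91, 0 and 1.77 CPM in transgenic epithelial cells. In the library at 0 a count of 0 allows up to 0.212 CPM, which is the level of 3 counts, and this covers counting error only. Neither Neurod1 comparison with the wall passed (adjusted p = 0.497 and 0.39).

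Sct, Tph1, Chga and Chgb were set apart by the 2 epithelial libraries with high colonocyte markers. Sct had 2.24, 4.12, 37.0 and 4.74 CPM in control and 27.7, 5.89, 3.10 and 6.83 CPM in transgenic epithelial cells, with control replicate 3 and transgenic replicate 1 far above the rest. Its log2 fold change against wall was 2.99 ± 0.80 (SE, adjusted p = 0.0074) in controls and 2.89 ± 0.80 (adjusted p = 0.00819) in transgenic samples. With either replicate left out alone it was 1.19 (adjusted p = 0.109) without control replicate 3 and 1.78 (adjusted p = 0.0547) without transgenic replicate 1. With both left out, it was 1.19 (adjusted p = 0.0169) in controls and 1.78 (adjusted p = 0.000978) in transgenic samples, both past the threshold, where 47.6% and 52.8% of all genes differed. Tph1 had 7.48, 9.69, 29.0 and 8.30 CPM in control and 22.4, 6.98, 2.40 and 7.54 CPM in transgenic epithelial cells. Chga had 53.5, 49.7, 153 and 67.7 and 132, 55.0, 48.4 and 48.1 CPM and Chgb 152, 150.3, 338 and 176 and 259, 101, 138 and 118 CPM. In each of these genes the same library was the highest of its group, while Pyy was at 22.3 and 18.7 CPM in these libraries, beside group means of 26.3 and 18.5 CPM. Chga against wall was 0.21 ± 0.37 (SE, adjusted p = 0.698) in controls and -0.17 ± 0.37 (adjusted p = 0.739) in transgenic samples, and without both libraries it was -0.38 (adjusted p = 0.139) and -0.71 (adjusted p = 0.00851). The part of the colonocyte content of these libraries in the Sct, Tph1, Chga and Chgb levels was not tested.

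**Figure D4:**
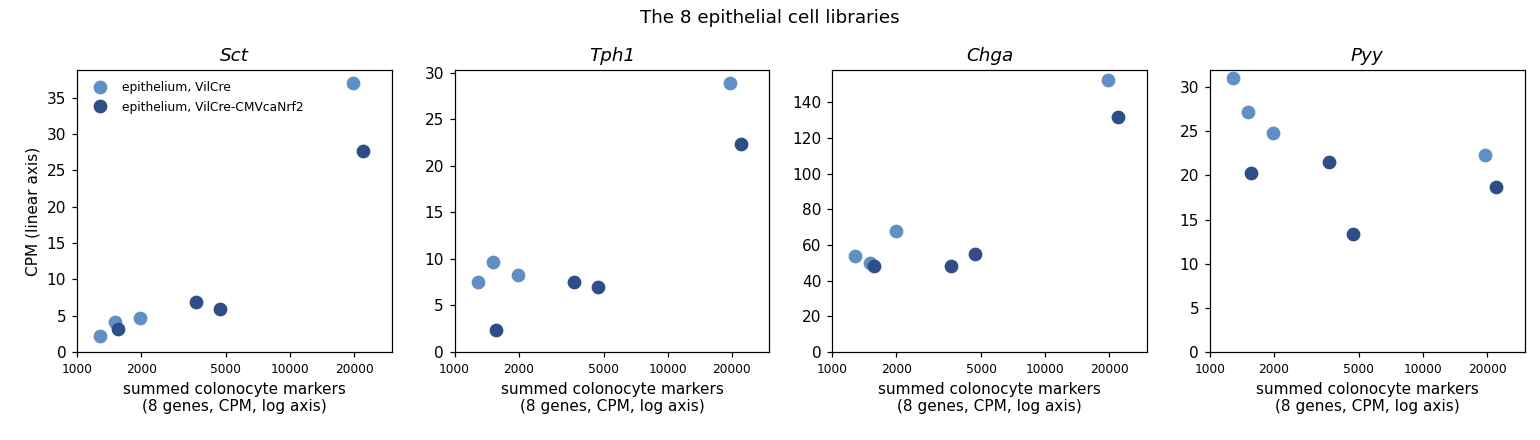
Each point is 1 of the 8 epithelial libraries, with the summed CPM of 8 colonocyte markers on a log axis and the CPM of Sct, Tph1, Chga or Pyy on a linear axis from 0. The libraries at 19660 and 22010 CPM of colonocyte markers hold the highest Sct, Tph1 and Chga values, and their Pyy lies among the other libraries.

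Over the 16 wall libraries the hormone and granule genes varied together, which includes the shift between treated and untreated libraries that they share. The Pearson correlation of log2 CPM between members was highest for Chga and Chgb (r = 0.911), Chga and Pyy (0.902), Chga and Sst (0.894) and Insl5 and Pyy (0.888). Tph1 and Neurod1 stood aside, with r at most 0.519 and 0.559 with any other member and 0.052 between Neurod1 and Pyy. Among all 16074 tested genes, the 3 nearest to Neurod1 were Insm1 (r = 0.895), St18 (0.878) and Rictor (0.868), of which Insm1 encodes a zinc finger factor of endocrine differentiation. The 3 nearest to Insl5 were the members Pyy, Chga and Sst (r = 0.868), and the nearest to Pyy were Accn4 (0.902), Chga and Insl5. Sst was nearest to Vip (r = 0.950), a neuropeptide gene of enteric neurons, then Lcn2 (0.925) and Sphk1 (0.921). Cck was nearest to Armcx4 (0.945), Trim35 (0.938) and Agtr1a (0.936), and Gcg to Pappa2 (0.940), Ddah1 (0.933) and Ripk3 (0.933). Chgb was nearest to Chga, Tmem90a (0.904) and Gm9733 (0.888), and Sct to Insl5 (0.811), Tmigd1 (0.782) and Clca6 (0.757). Lcn2, a neutrophil and epithelial injury gene, was also the nearest gene to Chga (0.918), and Tph1 was nearest to Slc4a7 (0.858), Piga (0.843) and Mpp7 (0.825). These correlations are descriptions over libraries that differ in depth and treatment, and carry no test.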

How the data were processed

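Messenger RNA of 24 mouse colon libraries was sequenced. Per the file headers, each deposited table lists RefSeq transcripts with the authors' estimated read count (an expected count, not normalized) and the authors' TPM, which is scaled by transcript length and library total. The submitters' processing notes name FastQC, RSEM 1.2.11 and the build mm10, with no role or order. Aligner, strand setting and annotation release were not given in the sources used here. Reads of antisense genes could therefore not be told apart. No member overlapped another listed gene.

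Expected counts and TPM were summed per gene symbol, and the counts were rounded to whole numbers. edgeR 4.0.16 (R 4.3.3) was used with TMM scaling, filterByExpr by group, the quasi-likelihood F test and Benjamini-Hochberg adjustment over all genes tested, at a threshold of 0.05. The 16 wall libraries (16074 genes), the 8 epithelial libraries (12941 genes), and the 8 epithelial with the 8 untreated wall libraries (15073 genes) were fitted separately. The SE was derived as |log2 fold change| / √F. The steps were tested on simulated counts. Within groups, none of 36 pairs of libraries agreed within sampling noise. DESeq2 1.42.0, other scalings and filters, and fits with libraries left out were alternatives. Promoters came from RefSeq on GRCm38.p6, and coordinates of genes from the deposited files, 1-based.

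The members and the gene lists were chosen with earlier results of these data known. Named were all 10 members, at most 5 genes per list with the smallest p for DSS in control wall, the most abundant markers of other cell types and the 3 genes nearest to each member by Pearson correlation of log2 CPM (prior count 2). Counts limit precision: intervals and floors cover counting error only.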

Additional observations from a re-analysis of the deposited data

Results flagged for a closer look

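Of 60 groups of 4 libraries, 1 for each of the 10 genes in each of the 6 groups, 7 held a library whose gap to its nearest neighbour took up more of the group's range than Dixon's 95% critical value allows. Chance flags about 1 in 20 groups. Of these, 5 fell on the 2 epithelial libraries with high colonocyte markers. In control epithelial replicate 3, Sct was at 37.02 CPM against 2.24 to 4.74 in the other 3 libraries, Tph1 at 28.95 CPM against 7.48 to 9.69, and Chgb at 338.25 CPM against 150.29 to 175.9. In transgenic epithelial replicate 1, Sct was at 27.67 CPM against 3.1 to 6.83 and Chga at 131.76 CPM against 48.06 to 55.0. The other two flags were for Cck, a gene of few reads. It was at 2.12 CPM in transgenic epithelial replicate 3 against 1.18 to 1.27, and at 0.62 CPM in untreated transgenic wall replicate 1 against 0.28 to 0.33.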

How the results depend on the processing

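Of 17 member fold changes past the threshold, all kept their sign in 272 refits under alternatives and 37 of these refits missed the threshold. Another 105 of 1557 member values, none called in either fit, changed sign. The number of members past the threshold for DSS in control wall, 5, was 3 with epithelial scaling, 4 with DESeq2 and 1 without the wall libraries of the other file name number, and ran from 0 to 7 with single libraries left out. For DSS in transgenic wall it was 3, and 1 to 6 with single libraries left out. For epithelial cells against wall it was 4 to 5 in controls and 3 to 5 in transgenic samples. For genotype in epithelial cells it was 0, and 1 (Gcg) without both epithelial libraries that stood apart. The cause was not tested, beyond the smaller number of samples. Deviations of same-numbered wall libraries correlated at -0.06 on average (-0.328 to 0.287), and those of epithelial libraries at -0.13 (-0.558 to 0.281). Among epithelial and untreated wall libraries together the average was -0.006. These averages show no pairing by replicate number, but with so wide a spread they cannot settle whether samples were paired. With the replicate number as a block, 5 members passed for DSS in control and 3 in transgenic wall. Fitting only the groups compared was not run for the difference contrasts or within epithelial cells, where it equals the fit used. Depth limited Cck and Neurod1, at 10 to 97 and 0 to 220 counts per library, and 4 libraries per group limited all genes.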
